A study of Mus musculus with 25 samples.

Results

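The genes described here carry out the duplication of DNA in S phase. They are 45 of the 55375 genes in the deposited count table, listed by symbol and by no threshold on measured values. The list was made with earlier results of these data known. All 45 were found and passed the filter on low counts. They cover the 6 subunits of the origin recognition complex, the licensing factors *Cdc6* and *Cdt1* with their inhibitor *Gmnn*, 7 *Mcm* genes, 8 genes of helicase activation, 5 polymerase and primase genes, the clamp and clamp loader (6), RPA with the enzymes that finish Okazaki fragments (5), and ribonucleotide reductase with cyclins E1, E2 and A2 (5).

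RNA-seq was performed on pools of 5 to 10 mouse embryos at the late two-cell stage, 28 to 29 h after insemination or activation, in 25 libraries of 11 groups. IVF embryos (4 libraries) came from oocytes of C57BL/6N females, aged 4 to 20 weeks by the labels, and DBA2 sperm. SCNT embryos came from enucleated BDF1 oocytes that received the nucleus of a BDF1 cumulus cell from a wild-type female. By the study, they were all female and IVF embryos were of both sexes. Hours were counted from activation in SCNT and from insemination in IVF. The strain of the oocyte, embryo sex, this timing and the way the embryo was made cannot be told apart in any comparison with IVF. SCNT embryos were activated in cytochalasin B (CCB) and received no mRNA (control SCNT, 2 libraries) or *Kdm3a* or *Kdm4d* mRNA, which encode H3K9 demethylases, at 1500 ng/µL in the labels (SCNT-*Kdm3a* and SCNT-*Kdm4d*, 2 each). The others were activated in latrunculin A (LatA), which like CCB blocks actin polymerization, and were left untreated (CC_cont, 2), or received the histone deacetylase inhibitor TSA at 25 nM for 8 h (CC_T, 2), a G9a inhibitor at 1 µM for 24 h (CC_G, with RK-701 in 3 libraries, written R701 in the labels, or A366 in 2), or both (CC_TG, with RK-701, A366 or UNC0638, 2 each). G9a is a histone H3K9 methyltransferase. No group received UNC0638 without TSA, and the labels give neither a batch nor a date.

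A cell copies its genome from many origins. In G1, the origin recognition complex with CDC6 and CDT1 loads the MCM helicase in an inactive form, and in S phase the kinase CDC7 with DBF4, together with cyclin-dependent kinases, recruits CDC45 and GINS to start it. Geminin, encoded by *Gmnn*, holds CDT1 so that no origin is licensed again in the same cycle. In the mouse embryo the first rounds of replication use proteins and mRNAs that the oocyte stored, embryonic transcription starts in earnest at the two-cell stage, and late two-cell embryos have completed S phase and stand in a long G2. An mRNA level at this stage is the sum of stored and newly made transcripts, and in pooled embryos a change per embryo cannot be told apart from a change in the share of embryos that express the gene.

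Many S phase genes are regulated by E2F factors, and the letters of this motif were looked for in the promoter windows of RefSeq, which run from 250 bases before to 50 bases after a start site (GRCm38.p6). Windows were at hand for 35 of the 45 genes. E2F was searched as TTTCCCGC, TTTGGCGC, TTTCGCGC and TTTGCCGC on both strands, of which neighbouring matches can overlap. It was found in 13 of the 35 (37.1%) and in 704 of 27025 genes with a window (2.6%). CCAAT was found in 22 of the 35 (62.9%, against 41.1% of all), and the CHR element TTTGAA in 6 (17.1%, against 20.2%). A match is a description of the window and not evidence of binding. The 3 stretches below are examples from genes of licensing and of the helicase, and other such genes, among them *Cdt1* and *Mcm3*, hold matches too. Each is written 5′ to 3′ on the strand of its gene with the E2F letters in capitals. That of *Cdc6* (chr11:98907989-98908044, plus strand) begins its match 138 bases before the RefSeq start site and lies in an intron of the gene model used for counting. That of *Mcm5* (chr8:75109332-75109387, plus strand) has its match 153 bases before the start, with a further match that overlaps it, and that of *Mcm6* (chr1:128359784-128359839, minus strand) 110 bases before it, with a further match that overlaps it and another 47 bases before the start, outside the stretch shown.
Cdc6: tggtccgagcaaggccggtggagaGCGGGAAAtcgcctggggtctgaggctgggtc
Mcm5: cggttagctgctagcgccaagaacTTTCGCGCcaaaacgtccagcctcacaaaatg
Mcm6: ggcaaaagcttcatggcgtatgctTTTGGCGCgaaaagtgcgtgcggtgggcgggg

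The libraries held 6662727 to 21188688 read pairs assigned to genes (median 13994840). The 7 two-cell and the 7 oocyte markers were detected in every group, and the summed level of the 10 cumulus cell markers was 3.7 to 20.1 CPM (read counts scaled to the library total) over all libraries and 208.9 to 1444.7 for the two-cell list, with 0 (CC_G with A366) to 4 (SCNT-*Kdm4d*) of the 10 cumulus markers at 0 in all libraries of a group, and 3 in IVF. The untreated SCNT libraries differed among themselves. Of the 45 genes, 34 were higher in replicate 1 of CC_cont than in replicate 2, 23 of them by more than 1.5-fold, and 32 were higher in replicate 2 of control SCNT than in replicate 1, 10 of them by more than 1.5-fold. The values below are CPM after TMM normalization. A gene is said to have risen or fallen, or to be higher or lower, where edgeR's quasi-likelihood test over all genes gave an adjusted p under 0.05 (Benjamini-Hochberg), and log2 fold changes are given with their SE.

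On a scale per length (TPM, as the median over all 25 libraries), *Gmnn* was the most abundant of the 45 at 1703 TPM. *Orc6* (696 TPM), *Rrm2* (517.8 TPM), *Dbf4* (502.8 TPM) and *Cdc45* (402.8 TPM) came next. The MCM2 to MCM7 genes lay between 39.4 TPM (*Mcm5*) and 119.6 TPM (*Mcm6*). *Pold1*, the catalytic subunit of polymerase delta, had 1.28 TPM, and *Fen1*, the flap endonuclease of Okazaki fragments, 1.41 TPM. For *Fen1*, 84.2% of the exon bases are shared with the genes *Gm10143* and *Tmem258*, and for *Gins2* 69% with *Gse1*. Pairs that overlapped more than 1 gene were not counted, so both levels can be too low in every group. The summed TPM of the 45 genes was 7611 ± 167 (SD, n = 4) in IVF, 7728 ± 71.1 (SD, n = 2) in control SCNT and 7695 ± 629 (SD, n = 2) in CC_cont. In CC_TG it came to 9031 ± 196 with A366, 8726 ± 263 with RK-701 and 8824 ± 14.3 with UNC0638 (SD, n = 2 each), and all 3 means were above those of IVF and of both untreated controls. So were the means of the other treated groups. They were 8528 ± 439 in SCNT-*Kdm3a*, 8431 ± 406 in SCNT-*Kdm4d*, 7954 ± 548 in CC_T and 7901 ± 372 in CC_G with A366 (SD, n = 2 each). In CC_G with RK-701 the mean was 8308 ± 199 (SD, n = 3). Single libraries overlapped, since replicate 1 of CC_T (7566) and of CC_G with A366 (7638) lay below replicate 1 of CC_cont (8139). The sum weighs abundant genes most. *Gmnn* alone ran from 1082 to 2164 TPM over the 25 libraries, and its part in these differences was not tested.

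SCNT embryos without treatment were first compared with IVF embryos, to ask which replication genes differ between them. Both untreated controls together had 16 higher and 8 lower genes of the 45 (53.3%), against 29.2% of all 25794 genes tested. The replication genes are abundant, however. Among the 8171 genes with a mean of at least 10 CPM, a level that 43 of the 45 reach, 50.2% passed the same test. By direction, 35.6% of the replication genes were higher and 17.8% lower, against 21.6% and 28.5% of the genes of at least 10 CPM, so that the share called was near that background while its direction leaned the other way, a difference that was not tested. Control SCNT alone had 12 higher and 6 lower genes (background 21.3%, and 40.1% of genes of at least 10 CPM, with 17.3% higher and 22.8% lower), and CC_cont alone had 11 higher and 7 lower (21.6%, and 39.4%, with 17.9% higher and 21.5% lower). The median log2 fold change of the 45 genes was 0.01 in the joint comparison, and that of all genes was 0.

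Of the 8 genes that fell, 3 encode subunits of the origin recognition complex and 1 the inhibitor of licensing. *Orc5* (chromosome 5, 22486489 to 22550429 of mm10), a subunit that binds ATP in the complex, had 291, 329.9, 314 and 337 CPM in the IVF libraries, 67.7 and 91.8 in control SCNT and 132 and 59.5 in CC_cont (log2 fold change −1.86, SE 0.19, adjusted p = 3.13e-08). It had the largest fall of the 45 genes in this comparison. *Orc6* had 612, 576, 626 and 569.5 CPM in IVF, 357 and 439.6 in control SCNT and 388 and 292 in CC_cont (log2 fold change −0.70, SE 0.12, adjusted p = 5.13e-05). *Gmnn* had 937, 939, 1085 and 926 CPM in IVF, 599 and 730.4 in control SCNT and 619 and 440.1 in CC_cont (log2 fold change −0.71, SE 0.13, adjusted p = 0.000116). For these 3 genes no SCNT control library reached the lowest IVF library. *Orc4* was also lower (log2 fold change −0.56, SE 0.15, adjusted p = 0.00671), so that 3 of the 6 origin recognition genes fell and none rose. *Orc1*, the subunit whose protein varies with the cell cycle in many cells, did not pass the test, with 130.4, 106, 122 and 134 CPM in IVF, 69.8 and 102 in control SCNT and 126 and 53.6 in CC_cont (log2 fold change −0.48, SE 0.20, adjusted p = 0.0748), the 2 CC_cont libraries lying on either side of the lowest IVF library.

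*Gins2*, a subunit of the GINS complex of the active helicase, had 18.6, 17, 13.7 and 21.4 CPM in IVF, 8.33 and 9.41 in control SCNT and 7.28 and 7.54 in CC_cont (log2 fold change −1.12, SE 0.23, adjusted p = 0.000411), with all SCNT controls below all IVF libraries. *Ccne2*, cyclin E2, had 171, 127, 149 and 138 CPM in IVF, 76.2 and 89.5 in control SCNT and 93.4 and 52.1 in CC_cont (log2 fold change −0.91, SE 0.16, adjusted p = 5.81e-05). *Ccne1*, cyclin E1, went the other way with 195, 231, 223 and 199.7 CPM in IVF, 329 and 244 in control SCNT and 208 and 382 in CC_cont (log2 fold change 0.45, SE 0.14, adjusted p = 0.0187). Both cyclins activate CDK2 at the entry into S phase. The libraries overlapped for *Ccne1*, whose call was lost without any of 4 libraries (adjusted p of 0.253 without replicate 2 of CC_cont, 0.132 without replicate 1 of control SCNT, and 0.0569 and 0.0548 without replicates 1 and 4 of IVF), but not for *Ccne2*. *Mcm7* (log2 fold change −0.62, SE 0.18, adjusted p = 0.00873) and *Rpa3* (log2 fold change −0.41, SE 0.16, adjusted p = 0.0471) were lower as well.

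Of the 16 genes that rose, 3 are of the MCM family (*Mcm3*, *Mcm5* and *Mcm8*), 3 act in helicase activation (*Cdc7*, *Dbf4* and *Mcm10*), 3 are polymerase genes and 3 belong to the clamp loader, and the others are *Cdt1*, *Lig1*, *Rrm1* and *Ccne1*. *Mcm5*, a subunit of the helicase ring, had 15.2, 22.6, 19.1 and 18.5 CPM in IVF, 50.9 and 45.5 in control SCNT and 53.5 and 56.9 in CC_cont (log2 fold change 1.44, SE 0.17, adjusted p = 3.25e-07). *Mcm3* had 24.6, 26.5, 28.1 and 35.6 CPM in IVF, 60.5 and 63.3 in control SCNT and 67.1 and 42.5 in CC_cont (log2 fold change 1.02, SE 0.16, adjusted p = 2.35e-05). *Rfc3*, a small subunit of the clamp loader, had 6.05, 2.92, 8.49 and 3.97 CPM in IVF, 23.1 and 25.2 in control SCNT and 20.4 and 19 in CC_cont (log2 fold change 2.03, SE 0.26, adjusted p = 1.19e-06). In these 3 genes every SCNT control library was above every IVF library. Not every subunit of these complexes passed the test: *Mcm2* had 106, 87.6, 95.9 and 119 CPM in IVF, 70.3 and 103 in control SCNT and 112 and 55.4 in CC_cont (log2 fold change −0.26, SE 0.17, adjusted p = 0.274), *Mcm4* and *Mcm6* did not pass the test either (adjusted p = 0.142 and 0.543), and *Rfc1* and *Rfc5* of the clamp loader had log2 fold changes of 0.01 and −0.05, neither past the threshold.

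*Rfc4*, another small subunit of the clamp loader, had 21.9, 19.1, 25.7 and 16.9 CPM in IVF, 36 and 60.2 in control SCNT and 98.5 and 38.1 in CC_cont (log2 fold change 1.46, SE 0.25, adjusted p = 4.7e-05). *Lig1*, the ligase that joins Okazaki fragments, had 10.8, 12.7, 18 and 8.64 CPM in IVF, 45.3 and 34.9 in control SCNT and 36.9 and 31.6 in CC_cont (log2 fold change 1.55, SE 0.21, adjusted p = 3.24e-06). *Cdt1* had 31.5, 35.9, 32.7 and 33.2 CPM in IVF, 65.3 and 60.8 in control SCNT and 55.1 and 59.8 in CC_cont (log2 fold change 0.85, SE 0.14, adjusted p = 3.41e-05). No SCNT control overlapped IVF in these 3 genes. The transcript of *Cdt1* was thus higher while that of its inhibitor, *Gmnn*, was lower, and the proteins were not measured. *Pold1* had 5, 7, 9 and 7 reads in the IVF libraries, 65 and 36 in control SCNT and 66 and 120 in CC_cont, or 0.775, 0.435, 0.583 and 0.488 CPM against 6.29 and 2.87 and 3.58 and 11.2 (log2 fold change 3.37, SE 0.53, adjusted p = 2.07e-05). *Pole*, the catalytic subunit of the leading strand polymerase, had 33.6 ± 7.67 CPM (SD, n = 4) in IVF and 61.4 ± 1.05 and 44.4 ± 8.47 (SD, n = 2 each) in control SCNT and CC_cont (log2 fold change 0.63, SE 0.16, adjusted p = 0.00383).

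*Mcm8*, which acts in the repair of forks by recombination, had 16.3, 10.8, 12.6 and 16.5 CPM in IVF, 22.2 and 33.7 in control SCNT and 41.2 and 18.2 in CC_cont (log2 fold change 1.05, SE 0.23, adjusted p = 0.00118). *Mcm10*, which helps to start the helicase, had 52.7, 59.9, 42.7 and 60.2 CPM in IVF, 73.2 and 109.9 in control SCNT and 112 and 69.1 in CC_cont (log2 fold change 0.76, SE 0.18, adjusted p = 0.00162). *Cdc7* had 37.5, 25.6, 52.7 and 34 CPM in IVF, 57 and 79.7 in control SCNT and 75.9 and 51.8 in CC_cont (log2 fold change 0.82, SE 0.19, adjusted p = 0.00137), and a CC_cont library fell below the highest IVF library. *Dbf4*, its activating partner (log2 fold change 0.42, SE 0.16, adjusted p = 0.0456), *Pola2* of polymerase alpha (log2 fold change 0.50, SE 0.18, adjusted p = 0.0351), *Rfc2* (log2 fold change 0.60, SE 0.21, adjusted p = 0.0368) and *Rrm1*, the large subunit of ribonucleotide reductase (log2 fold change 0.74, SE 0.18, adjusted p = 0.00258), were also higher. Of the 24 calls, 18 held whichever of the 8 libraries was left out, and the other 6 (*Mcm7*, *Dbf4*, *Pola2*, *Rfc2*, *Rpa3* and *Ccne1*) were lost in at least 1 such fit, *Mcm7* only without replicate 2 of CC_cont (adjusted p of 0.0526). The highest adjusted p was 0.41 for *Dbf4* (without replicate 2 of CC_cont), 0.197 for *Pola2* (replicate 2 of control SCNT), 0.27 for *Rfc2* (replicate 1 of CC_cont) and 0.208 for *Rpa3* (replicate 3 of IVF). *Cdc6* had 45.1, 45.8, 50.2 and 54.1 CPM in IVF, 43.3 and 74.6 in control SCNT and 59 and 34.9 in CC_cont (log2 fold change 0.11, SE 0.19, adjusted p = 0.708), so that the SCNT controls lay on both sides of IVF.

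The way the embryos were activated made no detectable difference. Between CC_cont and control SCNT, 0 of the 45 genes passed the test in edgeR (0.0116% of all genes and 0.0245% of those of at least 10 CPM), 0 had an unadjusted p under 0.05, and DESeq2 called 0. The 95% interval of the difference lay within 1 on the log2 scale for 40 of the 45.

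**Figure D1:**
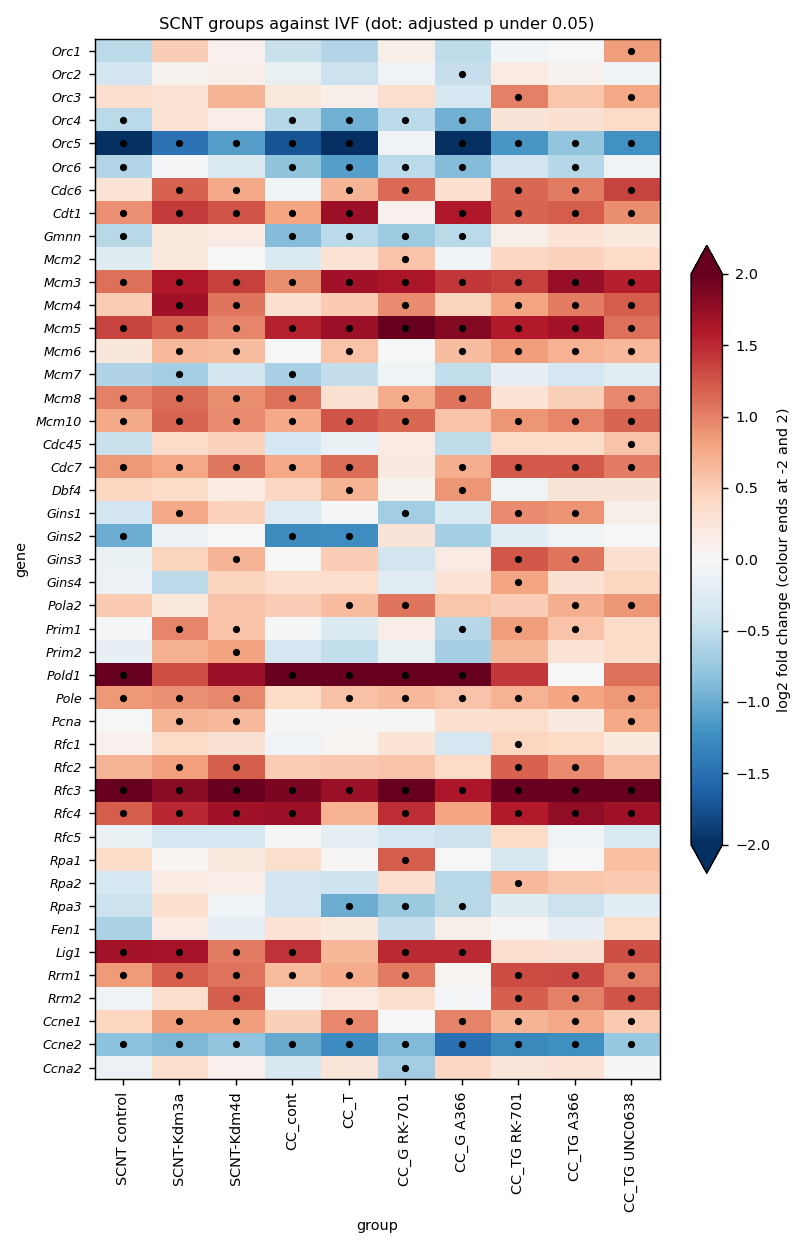
Log2 fold change of each of the 45 genes (rows, ordered by role from the origin recognition complex to the cyclins) in each SCNT group (columns) against IVF, as colour from blue (lower) to red (higher). A black dot marks an adjusted p under 0.05. *Mcm3*, *Mcm5* and *Rfc3* are red with a dot in all 10 columns and *Ccne2* is blue with a dot in all 10, and the blue of *Orc5* is missing in the column of CC_G with RK-701.

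The treated groups were then set against the same IVF libraries, which every such comparison shares. How many of all genes were called in every SCNT group was not counted. *Mcm3*, *Mcm5* and *Rfc3* were higher than IVF in all 10 SCNT groups and *Ccne2* was lower in all 10. With 1 library left out, *Mcm5* and *Rfc3* kept every one of these calls, *Mcm3* lost that in CC_cont without its replicate 1 (adjusted p of 0.0748), and *Ccne2* lost those in control SCNT (0.0812, replicate 1), SCNT-*Kdm4d* (0.0962, replicate 1) and CC_TG with UNC0638 (0.132, replicate 2). In SCNT-*Kdm3a*, 19 genes were higher and 3 lower (background 19.3% of all genes and 38.7% of those of at least 10 CPM, with 22.2% of the latter higher and 16.5% lower), and in SCNT-*Kdm4d* 21 and 2 (14.5% and 31%, with 19.2% higher and 11.8% lower). In CC_TG, 22 were higher and 2 lower with RK-701 (18.5% and 39.3%, with 24% higher and 15.3% lower), 19 and 3 with A366 (16.3% and 34.4%, with 21.1% and 13.3%) and 21 and 2 with UNC0638 (15% and 32.5%, with 20.4% and 12%). As shares of the 45 genes, the higher ones were 48.9%, 42.2% and 46.7% and the lower ones 4.44%, 6.67% and 4.44%. CC_T had 14 and 7 (21.7% and 43.3%, with 22.3% higher and 21% lower). CC_G had 15 and 7 with RK-701 (19.3% and 38.2%, with 17.4% and 20.7%) and 12 and 8 with A366 (22.1% and 44.2%, with 21.8% and 22.4%). The median log2 fold change of the 45 genes against IVF was 0.44 in SCNT-*Kdm3a*, 0.58 in SCNT-*Kdm4d* and 0.65, 0.47 and 0.57 in CC_TG with RK-701, A366 and UNC0638, where that of all genes lay between −0.09 and −0.01. In CC_T it was 0.24, and in CC_G 0.16 with RK-701 and 0.11 with A366. In all, 44.4% (CC_G with A366) to 53.3% (CC_TG with RK-701) of the 45 were called in a treated group. The differences from the background were not tested here either.

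*Cdc6*, *Mcm4* and *Mcm6* were not called in the untreated controls and were higher than IVF in all 3 CC_TG groups and both *Kdm* groups. In CC_TG with UNC0638, *Cdc6* had 120.2 and 130.2 CPM (log2 fold change 1.36, SE 0.22, adjusted p = 8.05e-05) where IVF had 45.1 to 54.1. With 1 library left out, *Cdc6* kept its call in CC_TG with A366 and with UNC0638, *Mcm4* in SCNT-*Kdm3a* and CC_TG with UNC0638, and *Mcm6* in CC_TG with RK-701, and each lost it in at least 1 fit in the other groups. These rises over IVF were not confined to CC_TG and the *Kdm* groups. *Cdc6* and *Mcm6* were also higher than IVF in CC_T, *Cdc6* and *Mcm4* in CC_G with RK-701, and *Mcm6* in CC_G with A366. With RK-701 alone both calls held whichever library was left out, and the others were lost in at least 1 fit. Of the 8 genes that were lower in the untreated controls, *Orc4*, *Gmnn*, *Gins2* and *Rpa3* were called in none of the 5 CC_TG and *Kdm* groups. *Orc5*, *Orc6*, *Mcm7* and *Ccne2* were lower in at least 1 of them. A missing call does not show that a level was restored. For *Gmnn* the 95% interval against IVF was −0.20 to 0.44 in CC_TG with RK-701 and −0.12 to 0.53 in SCNT-*Kdm3a*. *Orc5* stayed below IVF in all 5 (log2 fold change −0.79, SE 0.23, adjusted p = 0.0191 in CC_TG with A366, where it was nearest, a call that was lost without replicate 1 or 2 of that group, at 0.071 and 0.22). Of the 16 genes that were higher in the untreated controls, 10 were higher in all 5 groups too (*Cdt1*, *Mcm3*, *Mcm5*, *Mcm10*, *Cdc7*, *Pole*, *Rfc3*, *Rfc4*, *Rrm1* and *Ccne1*), of which *Cdt1*, *Mcm3*, *Mcm5*, *Rfc3* and *Rfc4* kept the call in each group whichever library was left out. The share of all genes that did so was not counted.

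**Figure D2:**
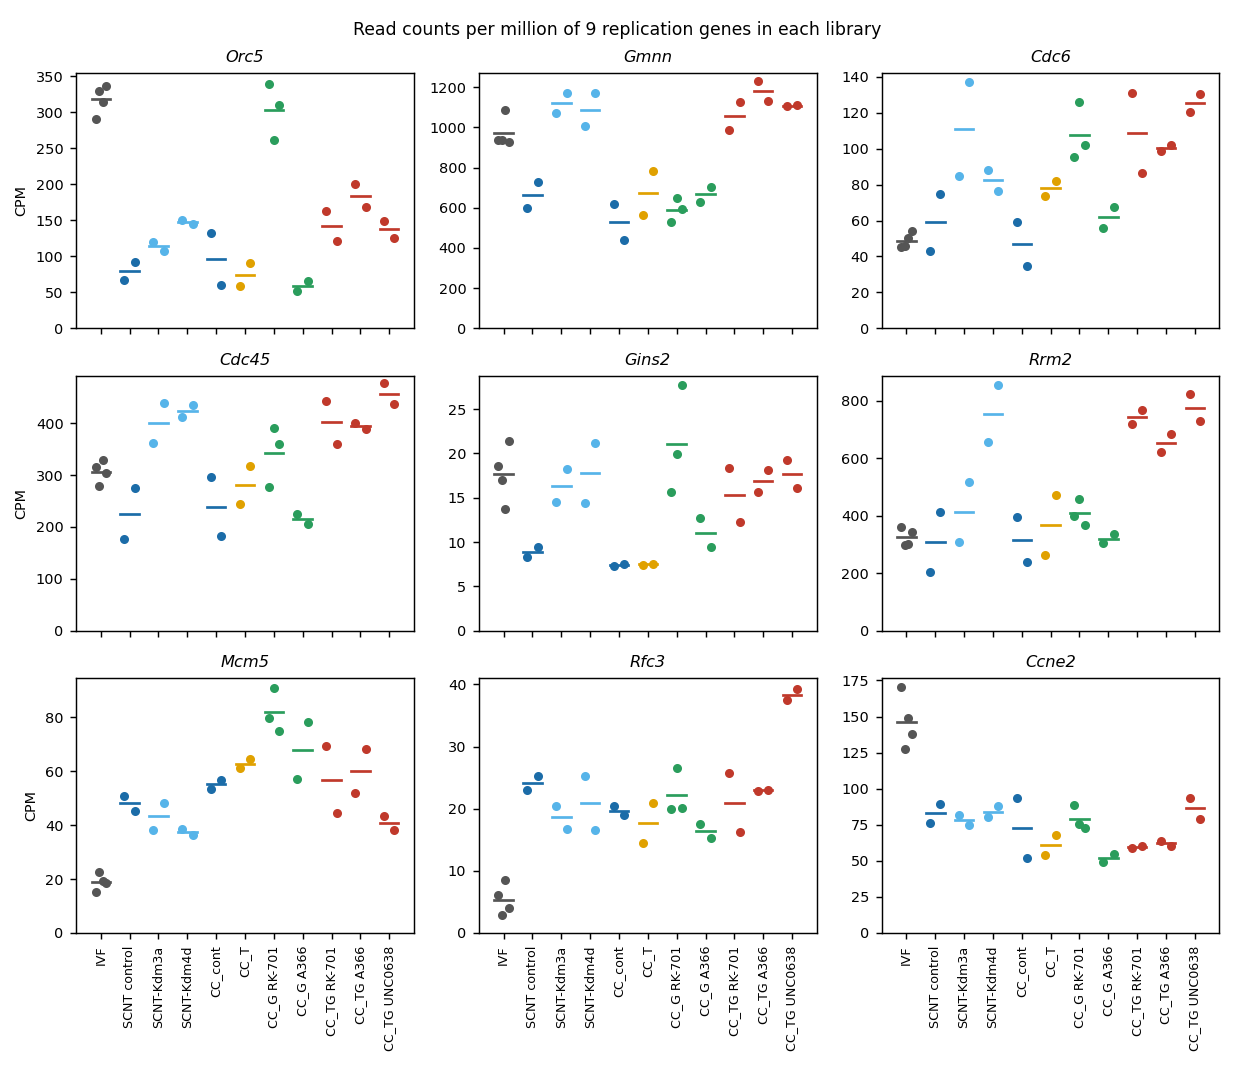
CPM of 9 replication genes (panels) in each library (points) of the 11 groups (horizontal axis), with the group mean as a bar. The vertical axes start at 0 and differ between panels. Grey is IVF, dark blue the untreated SCNT controls, light blue the *Kdm* groups, yellow TSA alone, green a G9a inhibitor alone and red both together. *Gmnn*, *Cdc45*, *Gins2* and *Rrm2* are higher in the red groups than in CC_cont, and *Orc5* reaches the IVF level in CC_G with RK-701, at 262 to 340 CPM, and in no other SCNT group.

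Each treated group was next compared with its own untreated control, to ask which replication genes the treatments move. TSA together with a G9a inhibitor raised genes of most steps. With RK-701, 13 genes rose and 2 fell against CC_cont (33.3% of the 45, against 9.65% of all genes and 23.9% of genes of at least 10 CPM, with 18.2% higher and 5.65% lower). With A366 it was also 13 and 2 (33.3%, against 9.21% and 21.1%, with 16% higher and 5.07% lower), and with UNC0638 11 and 1 (26.7%, against 9.03% and 20.4%, with 16% higher and 4.39% lower). The median log2 fold change of the 45 genes was 0.43, 0.43 and 0.39, where that of all genes was −0.11, −0.12 and −0.08. The log2 fold change was above 0 in 36, 35 and 38 of the 45. The differences from the background were not tested.

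In all 3 co-treatments 8 genes rose: *Orc4*, *Cdc6*, *Gmnn*, *Mcm6*, *Cdc45*, *Gins2*, *Rpa2* and *Rrm2*. The 3 comparisons share the CC_cont libraries, and how many of all genes rose in all 3 was not counted. *Gmnn* had 619 and 440.1 CPM in CC_cont, 989 and 1127 in CC_TG with RK-701, 1230 and 1131 with A366 and 1105 and 1110 with UNC0638 (log2 fold change 1.16, SE 0.18, adjusted p = 0.000284 with A366). *Cdc6* had 59 and 34.9 CPM in CC_cont, 131 and 86.2 with RK-701, 98.8 and 102 with A366 and 120.2 and 130.2 with UNC0638 (log2 fold change 1.41, SE 0.27, adjusted p = 0.00119 with UNC0638). *Gins2* had 7.28 and 7.54 CPM in CC_cont, 18.4 and 12.2 with RK-701, 15.6 and 18.1 with A366 and 19.2 and 16.1 with UNC0638 (log2 fold change 1.25, SE 0.32, adjusted p = 0.0129 with UNC0638). The treated libraries of these 3 genes were all above both CC_cont libraries.

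*Cdc45*, which joins GINS and MCM in the active helicase, had 296 and 182 CPM in CC_cont, 444 and 359.7 with RK-701, 400 and 389 with A366 and 477 and 436 with UNC0638 (log2 fold change 0.93, SE 0.22, adjusted p = 0.00767 with UNC0638). *Rrm2*, the small subunit of ribonucleotide reductase, which limits the supply of deoxynucleotides in S phase, had 394 and 238 CPM in CC_cont, 719 and 769 with RK-701, 623 and 684 with A366 and 824 and 729 with UNC0638 (log2 fold change 1.30, SE 0.28, adjusted p = 0.00411 with UNC0638). *Mcm6* had 151 and 125 CPM in CC_cont, 238 and 256 with RK-701, 203 and 244 with A366 and 219 and 213 with UNC0638 (log2 fold change 0.84, SE 0.18, adjusted p = 0.00296 with RK-701). For these genes too every co-treated library was above both CC_cont libraries. *Orc4* (log2 fold change 0.95, SE 0.22, adjusted p = 0.00594 with UNC0638) and *Rpa2*, a subunit of the protein that coats single-stranded DNA (log2 fold change 1.03, SE 0.27, adjusted p = 0.0143 with RK-701), completed the 8.

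Other genes rose in fewer groups. *Gins1*, *Gins3* and *Ccna2* (cyclin A2) rose with RK-701 and with A366 (log2 fold change 1.24, SE 0.27, adjusted p = 0.00324 for *Gins3* with RK-701), *Prim1* and *Prim2* of primase rose with RK-701, *Orc5* and *Mcm3* with A366, and *Orc1*, *Orc6* and *Pcna* with UNC0638. *Orc1* had 149.7 and 87.2 CPM with RK-701, 119.6 and 124 with A366 and 239.6 and 201 with UNC0638 (log2 fold change 1.29, SE 0.29, adjusted p = 0.00492). *Lig1* fell with RK-701 and with A366, from 36.9 and 31.6 CPM in CC_cont to 20.1 and 11.9 and 16.6 and 14.6 (log2 fold change −1.14, SE 0.30, adjusted p = 0.0151 with A366), and had 35.9 and 26 CPM with UNC0638. *Pold1* fell in all 3, from 66 and 120 reads in CC_cont to 23 and 17 with RK-701, 3 and 13 with A366 and 22 and 9 with UNC0638. *Mcm2* had 112 and 55.4 CPM in CC_cont and 150.3 and 122, 132 and 149.8 and 145 and 124 in CC_TG with RK-701, A366 and UNC0638, and missed the threshold in each (adjusted p = 0.0695, 0.0515 and 0.0815).

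These counts rest on 2 CC_cont libraries that differ. Where a group was left with 1 library, that library was assumed to vary like those of the other groups. Without replicate 2 of CC_cont, 6 genes were called with RK-701 and 2 with UNC0638. Without replicate 1 of CC_cont the counts were 23 and 20. With A366, 3 were called without replicate 1 of that group. *Gmnn* was called in each of the 3 comparisons whichever library was left out, and so were *Mcm6* with RK-701 and *Cdc6* with UNC0638, whereas every other call was lost in at least 1 such fit. With only the 4 compared libraries in the fit, 2, 2 and 3 genes were called with RK-701, A366 and UNC0638. The two-cell markers had a summed level of 309.9 to 520.8 CPM in CC_cont, 608 to 666.6 in CC_TG with RK-701, 536.5 to 644.5 with A366 and 1175.9 to 1444.7 with UNC0638. The oocyte markers had 3209.3 to 5161.5, 6906.2 to 7935.5, 7145.8 to 7756.1 and 7866.5 to 8271.2 CPM in the same groups, so that neither list overlapped between CC_cont and CC_TG, and their part in the result was not tested.

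The demethylase mRNAs raised genes and lowered none. SCNT-*Kdm3a* raised 11 genes against control SCNT and lowered 0 (24.4%, against 6.14% of all genes and 13.7% of genes of at least 10 CPM, with 11.3% higher and 2.35% lower). They were *Orc1*, *Orc4*, *Orc6*, *Cdc6*, *Gmnn*, *Mcm4*, *Cdc45*, *Gins1*, *Prim1*, *Pcna* and *Rpa3*. Whether their share exceeds the background was not tested. *Gmnn* had 599 and 730.4 CPM in control SCNT and 1071 and 1169 in SCNT-*Kdm3a* (log2 fold change 0.75, SE 0.18, adjusted p = 0.0122). *Prim1*, the catalytic subunit of primase, had 168 and 153 CPM in control SCNT and 308 and 347 in SCNT-*Kdm3a* (log2 fold change 1.03, SE 0.21, adjusted p = 0.00365). *Orc1* had 69.8 and 102 CPM in control SCNT and 147 and 199.6 in SCNT-*Kdm3a* (log2 fold change 1.01, SE 0.29, adjusted p = 0.0348). In these 3 genes both SCNT-*Kdm3a* libraries were above both controls.

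SCNT-*Kdm4d* raised 5 genes and lowered 0 (11.1%, against 5.15% of all genes and 13.4% of genes of at least 10 CPM, with 11.2% higher and 2.14% lower, so that the share was not above that of genes of similar level). They were *Orc5*, *Gmnn*, *Cdc45*, *Gins1* and *Rrm2*. *Rrm2* had 203 and 412 CPM in control SCNT and 656 and 856 in SCNT-*Kdm4d* (log2 fold change 1.30, SE 0.28, adjusted p = 0.00755). *Orc5* had 151 and 145 CPM in SCNT-*Kdm4d* (log2 fold change 0.89, SE 0.26, adjusted p = 0.0465) and 119.8 and 108 in SCNT-*Kdm3a* (log2 fold change 0.51, SE 0.26, adjusted p = 0.273), so that the levels in both groups lay between the controls and IVF. *Gmnn*, *Cdc45* and *Gins1* rose with both mRNAs. Every one of these calls was lost when 1 library was left out, and without replicate 1 of control SCNT 0 genes were called in either comparison. With the 4 untreated controls of both kinds as the reference, 18 and 12 genes were called, and their calls held all 11 and all 5 of the above. The two-cell markers had a summed level of 571.7 to 718.4 CPM in control SCNT, 1203.7 to 1403.2 in SCNT-*Kdm3a* and 770.5 to 874 in SCNT-*Kdm4d*, and the oocyte markers 5521.7 to 6786.1, 9893.9 to 10657.4 and 8407.1 to 8649.7 CPM, and their part in the result was not tested.

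**Figure D3:**
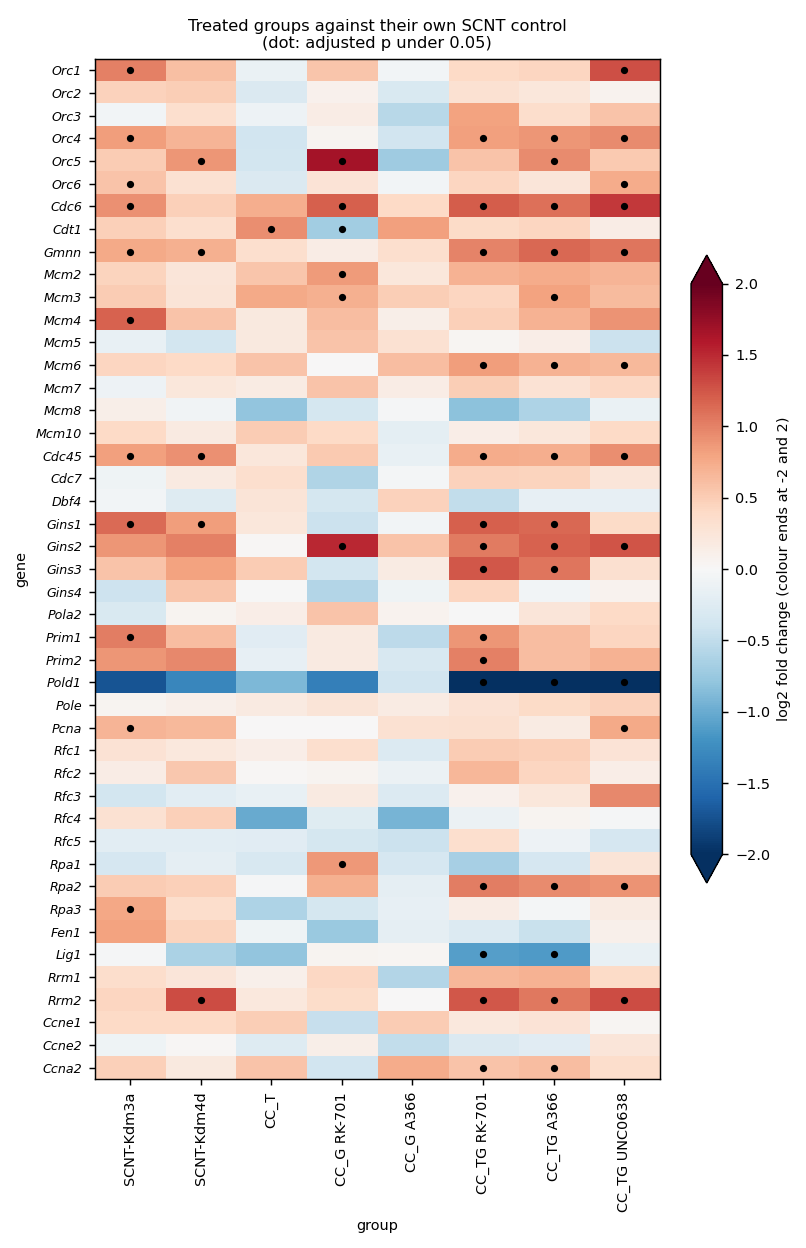
Log2 fold change of each of the 45 genes (rows, ordered by role) in each treated group (columns) against its own untreated control, control SCNT for the *Kdm* groups and CC_cont for the others, as colour from blue (lower) to red (higher). A black dot marks an adjusted p under 0.05. Dots are rare in CC_T (1) and absent in CC_G with A366 (0), and lie on 12 to 15 genes in the 3 CC_TG columns, where *Pold1* is blue.

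Given alone, TSA or A366 moved few of these genes. In CC_T, *Cdt1* rose from 55.1 and 59.8 CPM in CC_cont to 116 and 103 (log2 fold change 0.93, SE 0.20, adjusted p = 0.0302), and no other gene passed the test (2.22% of the 45, background 0.372%, and 0.844% of genes of at least 10 CPM). Its call was lost without replicate 1 of CC_cont (adjusted p of 0.16) and without either CC_T library (0.244 and 0.0534). In CC_G with A366, edgeR called 0 of the 45 (background 0.132%, and 0.318% of genes of at least 10 CPM), 11 had an unadjusted p under 0.05, and DESeq2 called 3. Without replicate 2 of CC_cont 9 were called. *Cdt1* was at 94.6 and 108 CPM there (log2 fold change 0.82, SE 0.20, adjusted p = 0.072) and *Cdc6* at 56 and 67.8 CPM (log2 fold change 0.40, SE 0.27, adjusted p = 0.564).

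RK-701 alone raised 6 genes and lowered 1 against CC_cont (15.6%, against 5.47% of all genes and 13.7% of genes of at least 10 CPM, with 6.99% higher and 6.67% lower). The share called was thus near that of genes of similar level. By direction, 13.3% of the 45 were higher and 2.22% lower, a lean that was not tested. *Orc5* had 339.9, 262 and 309.7 CPM, against 132 and 59.5 in CC_cont (log2 fold change 1.66, SE 0.25, adjusted p = 0.000374), and this call held whichever library was left out. *Gins2* had 15.7, 19.9 and 27.8 CPM (log2 fold change 1.51, SE 0.30, adjusted p = 0.00377) and *Cdc6* 95.1, 126 and 102 CPM (log2 fold change 1.19, SE 0.25, adjusted p = 0.00538). *Mcm2* with 143, 159 and 153 CPM (log2 fold change 0.86, SE 0.23, adjusted p = 0.024), *Mcm3* with 90.3, 93.8 and 84.8 CPM (log2 fold change 0.71, SE 0.21, adjusted p = 0.044) and *Rpa1* with 55.2, 48.2 and 57 CPM (log2 fold change 0.86, SE 0.25, adjusted p = 0.0425) rose too. *Cdt1* fell to 28.8, 38.7 and 38.6 CPM (log2 fold change −0.70, SE 0.18, adjusted p = 0.0179), a level that overlapped that of IVF (31.5 to 35.9 CPM) and lay below every library of CC_cont and control SCNT. All calls but that of *Orc5* were lost without replicate 2 of CC_cont, and without replicate 1 of CC_cont the count was 16.

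*Gmnn* had 529, 649 and 593 CPM with RK-701 alone (log2 fold change 0.16, SE 0.17, adjusted p = 0.657) and remained below IVF (log2 fold change −0.72, SE 0.14, adjusted p = 0.000459). Against IVF, *Orc5* (log2 fold change −0.07, SE 0.20, adjusted p = 0.874), *Cdt1* (log2 fold change 0.08, SE 0.15, adjusted p = 0.775), *Dbf4* (log2 fold change 0.07, SE 0.17, adjusted p = 0.848) and *Ccne1* (log2 fold change 0.01, SE 0.16, adjusted p = 0.973) were not called, the 95% interval being −0.47 to 0.34 for *Orc5* and −0.23 to 0.39 for *Cdt1*. *Mcm5* was at its highest level of all groups, with 79.9, 90.9 and 75 CPM (log2 fold change 2.11, SE 0.18, adjusted p = 3.07e-09 against IVF). Of the 6 oocyte markers that were tested, 3 were higher with RK-701 alone than in CC_cont (*Nlrp5*, *Gdf9* and *Zp2*) and 3 were not called (*Zp3*, *Mos* and *Dppa3*), and the sum of the list lay within the range of CC_cont. *Nlrp5* had 219.9 ± 11.1 CPM (SD, n = 3) with RK-701 alone and 229 ± 5.2 (SD, n = 4) in IVF, and 53.6 to 161.6 in the other SCNT libraries. *Gdf9* had 109 ± 18.1 and 119.5 ± 17.1 CPM in the same groups and *Bmp15* 1110 ± 137 and 406 ± 85.7 CPM, while *Dppa3* had 2860 ± 219 and 6104 ± 469 CPM. Over all 7 oocyte markers the summed level was 4356.7 to 4545.6 CPM with RK-701 alone, 3209.3 to 5161.5 in CC_cont and 6674 to 7714 in IVF, and 0 of the 7 were at 0 throughout any group. The part of these transcripts in the result was not tested.

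The inhibitors were compared with each other, first alone and then with TSA. At the same dose and time, 15 of the 45 genes differed between A366 and RK-701 without TSA, 5 being higher with A366 and 10 lower (33.3%, against 12.9% of all genes and 31.7% of genes of at least 10 CPM, with 16.9% higher and 14.8% lower, so that the share was near the background of similar level). *Orc5* (log2 fold change −2.38, SE 0.26, adjusted p = 1.36e-06), with 51.4 and 65.3 CPM with A366, had the largest difference. *Cdt1* (log2 fold change 1.52, SE 0.18, adjusted p = 2.6e-06), *Ccna2* (log2 fold change 1.11, SE 0.16, adjusted p = 4.19e-05) and *Ccne1* (log2 fold change 0.97, SE 0.18, adjusted p = 0.000633) were higher with A366, as were *Mcm6* and *Dbf4*. *Cdc6*, *Cdc45*, *Gins2*, *Prim1*, *Rfc1*, *Rpa1*, *Rpa2*, *Rrm1* and *Ccne2* were lower with A366. *Orc5*, *Cdt1*, *Ccne1* and *Ccna2* were called whichever library was left out, the other 11 were each lost in at least 1 such fit, and 5 genes were called without replicate 1 of A366.

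With TSA, 0 of the 45 genes differed between A366 and RK-701 (0% of all genes), 0 had an unadjusted p under 0.05, and DESeq2 called 0. The 95% interval lay within 1 on the log2 scale for 40 of the 45. For *Orc5* it was −0.16 to 0.91, and for *Cdt1* −0.36 to 0.44. UNC0638 with TSA against RK-701 with TSA gave 0 calls (1.21% of all genes, 3.1% of those of at least 10 CPM), with 10 unadjusted p under 0.05, 5 calls by DESeq2 and 2 in edgeR without the filter on low counts, and against A366 with TSA 0 calls (1% and 2.47%), with 10, 3 and 1. The intervals lay within 1 for 33 and 34 of the 45. Against RK-701 the interval was 0.35 to 1.48 for *Rpa1*, 0.34 to 1.56 for *Lig1* and 0.31 to 1.48 for *Orc1*, which leave out 0 before any adjustment over genes, while no adjusted p passed the threshold. Whether the difference between A366 and RK-701 itself changed with TSA was not tested.

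**Figure D4:**
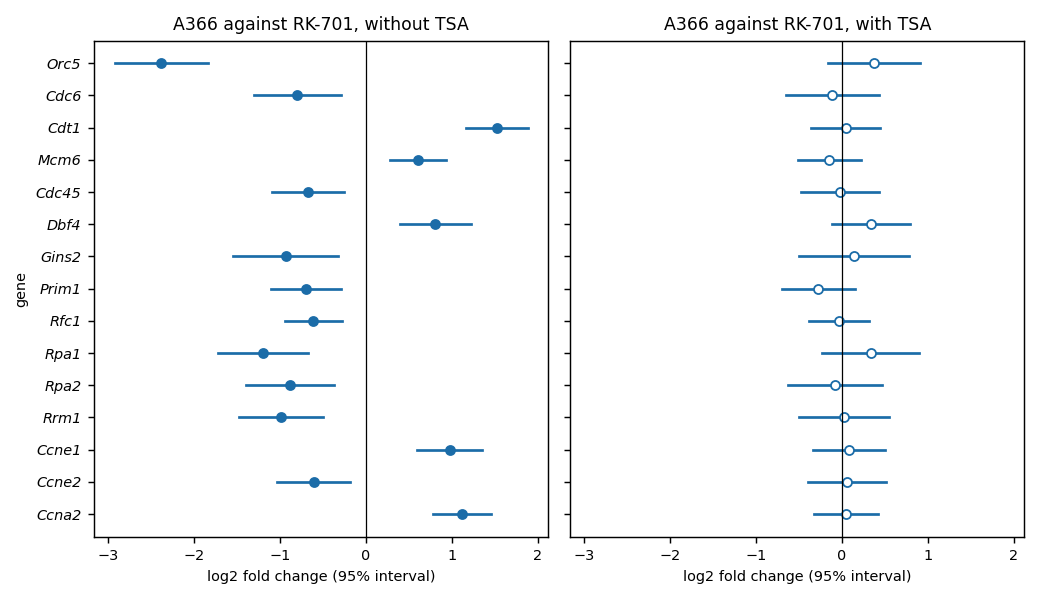
Log2 fold change of A366 against RK-701 (horizontal axis) with its 95% interval for the 15 genes that differed without TSA (left panel), and for the same genes with TSA (right panel). Filled points have an adjusted p under 0.05. On the left the points run from −2.38 for *Orc5* to 1.52 for *Cdt1*, and on the right every interval holds 0.

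Whether TSA and a G9a inhibitor together did more than the sum of both was tested as an interaction on the log2 scale. With RK-701, the interaction was positive for *Orc4* (log2 fold change 1.17, SE 0.29, adjusted p = 0.0317), *Gins1* (log2 fold change 1.40, SE 0.33, adjusted p = 0.0218) and *Rpa3* (log2 fold change 1.11, SE 0.30, adjusted p = 0.0425), 6.67% of the 45 against 2.3% of all genes and 6.5% of genes of at least 10 CPM (4.59% positive and 1.91% negative). With A366 it was positive for *Orc5* (log2 fold change 2.02, SE 0.37, adjusted p = 0.00619), *Orc4* (log2 fold change 1.65, SE 0.31, adjusted p = 0.00728), *Rfc4* (log2 fold change 1.99, SE 0.48, adjusted p = 0.0312) and *Prim1* (log2 fold change 1.37, SE 0.30, adjusted p = 0.0193) and negative for *Cdt1* (log2 fold change −1.32, SE 0.28, adjusted p = 0.0151), 11.1% against 1.88% and 5.19% (3.73% positive and 1.46% negative). *Orc4* had 313 and 180.1 CPM in CC_cont, 154 and 223 in CC_T, 207 and 173 in CC_G with A366 and 494 and 416 in CC_TG with A366. Its interaction was called with both inhibitors, but the 2 contrasts share the CC_cont and CC_T libraries and are not independent. *Orc5* had 132 and 59.5, 58.3 and 90.7, 51.4 and 65.3 and 200.1 and 168 CPM in the same 4 groups, while with RK-701 its interaction was −0.73 (SE 0.35, adjusted p = 0.334). Each of these calls was lost when 1 of several libraries was left out (0 genes remained with A366 without replicate 1 of CC_cont, replicate 1 of CC_T or replicate 1 of CC_TG, and 0 with RK-701 without replicate 1 of CC_G or replicate 2 of CC_TG), and without replicate 2 of CC_cont 18 genes were called with A366. Since CC_cont, CC_T and CC_G with A366 enter these contrasts with 2 libraries each, the calls rest on few embryo pools. A positive interaction is not by itself a rise over CC_cont. *Rpa3* was not called against CC_cont in CC_TG with RK-701, nor were *Rfc4* and *Prim1* in CC_TG with A366. With RK-701 the share of interactions called was near that of genes of similar level.

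**Figure D5:**
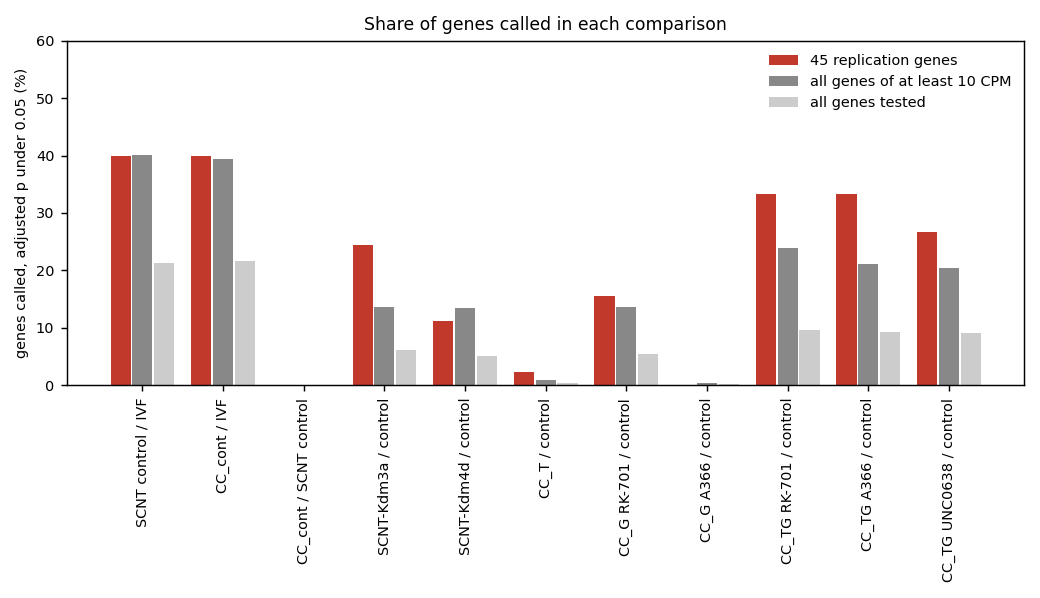
Share of genes with an adjusted p under 0.05 (vertical axis, %) in each comparison (horizontal axis) for the 45 replication genes (red), all genes of at least 10 CPM (dark grey) and all genes tested (light grey). Red and dark grey bars are of like height for the controls against IVF (40% against 40.1% and 39.4%). Red is higher in the CC_TG groups (33.3%, 33.3% and 26.7% against 23.9%, 21.1% and 20.4%) and in SCNT-*Kdm3a* (24.4% against 13.7%). It is lower in SCNT-*Kdm4d* (11.1% against 13.4%). These differences were not tested.

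Other genes of the pathway were followed in 7 lists with 110 genes, of which 107 were tested. Against IVF, both untreated controls together had 6 higher and 5 lower of 23 tested genes of the fork and polymerases, 1 and 3 of 14 genes that control licensing and origin firing, 2 and 5 of 12 genes of nucleotide supply, 2 and 3 of 17 E2F and RB family genes, 7 and 7 of 23 CDK, cyclin and inhibitor genes, 1 and 4 of 10 checkpoint genes, and 3 and 3 of 8 genes of chromatin assembly behind the fork, where 29.2% of all genes and 50.2% of those of at least 10 CPM were called. In CC_TG with RK-701 against CC_cont the counts in the same order were 2 and 1, 3 and 0, 2 and 2, 1 and 2, 6 and 2, 3 and 1, and 2 and 0, where 9.65% and 23.9% were called.

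Among the regulators of cyclin E and CDKs, *Fbxw7*, which marks cyclin E for degradation, had 30.0 ± 1.91 CPM (SD, n = 4) in IVF, 9.51 ± 2.9 in control SCNT and 5.57 ± 0.498 in CC_cont (SD, n = 2 each; log2 fold change −2.42, SE 0.27, adjusted p = 2.94e-07 for CC_cont). It was lower than IVF in all 10 SCNT groups, which were all set against the same IVF libraries. How many of all genes were so was not counted. *Cdc25a*, the phosphatase that activates CDK2, had 13.5 ± 1.8 CPM in IVF, 36 ± 2.43 in control SCNT and 41.4 ± 1.75 in CC_cont (log2 fold change 1.61, SE 0.20, adjusted p = 1.76e-06), and 16.8 ± 6.72 in SCNT-*Kdm4d* (log2 fold change −1.10, SE 0.24, adjusted p = 0.00859 against control SCNT). *Wee2*, an oocyte kinase that inhibits CDK1, had 765 ± 87 CPM in IVF, 365 ± 65.1 in CC_cont and 1044 ± 184 (SD, n = 3) in CC_G with RK-701 (log2 fold change 1.52, SE 0.19, adjusted p = 6.82e-05), which was the only SCNT group above IVF (log2 fold change 0.45, SE 0.15, adjusted p = 0.033).

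The CDK subunits *Cks1b* and *Cks2* were lower in both controls than in IVF (log2 fold change −1.46, SE 0.20, adjusted p = 5.09e-06 for *Cks1b* in CC_cont). *Cks2* had 2091 ± 205 CPM in IVF, 993 ± 394 in CC_cont and 2266 ± 112 in CC_TG with RK-701 (log2 fold change 1.19, SE 0.21, adjusted p = 0.000597), and rose in all 3 co-treatments and both *Kdm* groups. *Umps*, an enzyme of pyrimidine synthesis, had 85.2 ± 10.6 CPM in IVF, 49.7 ± 13.1 in CC_cont and 157 ± 10.5 in CC_TG with RK-701 (log2 fold change 1.65, SE 0.23, adjusted p = 7.94e-05), and was called in the same 5 groups. *Mcmbp*, which binds MCM proteins and helps to assemble them, fell from 129 ± 3.93 CPM in IVF to 59.3 ± 8.8 in CC_cont (log2 fold change −1.12, SE 0.16, adjusted p = 1.44e-05) and had 135 ± 16 CPM in CC_TG with A366 (log2 fold change 1.19, SE 0.18, adjusted p = 0.000171). *Ccnd2*, one of the D-type cyclins, which act before cyclin E, had 1.73 ± 0.864 CPM in IVF, 24.3 ± 8.03 in CC_cont and 0.904 ± 0.0359 in CC_TG with A366 (log2 fold change 3.82, SE 0.53, adjusted p = 7.82e-06 against IVF and log2 fold change −4.74, SE 0.73, adjusted p = 0.000197 against CC_cont).

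*Ccnd3* (log2 fold change 1.93, SE 0.28, adjusted p = 1.73e-05 in CC_cont), *Cdk4*, the kinase they activate (log2 fold change 1.00, SE 0.23, adjusted p = 0.00205), and *Rnaseh2b*, a subunit of the enzyme that removes RNA from DNA (log2 fold change 1.32, SE 0.31, adjusted p = 0.00265), were higher than IVF in both controls. *Ccnd3* fell in all 3 co-treatments (log2 fold change −1.22, SE 0.34, adjusted p = 0.0222 with RK-701). *Mcmdc2*, a relative of the MCM genes that acts in meiosis, had 0.619 ± 0.218 CPM in IVF, 12.9 ± 0.276 in control SCNT and 1.72 ± 0.354 in SCNT-*Kdm3a* (log2 fold change 4.29, SE 0.52, adjusted p = 1.07e-06 for control SCNT against IVF and log2 fold change −2.91, SE 0.62, adjusted p = 0.00468 for SCNT-*Kdm3a* against control SCNT).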

How the data were processed

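Libraries were made from polyadenylated RNA of pooled embryos with SMART-Seq HT. Per the study's methods and the submitters' notes, the authors used Trimmomatic for trimming, STAR for alignment to mm10 and featureCounts 1.6.2 for counting. The deposited values are whole-number read counts, here those of 55375 genes, next to 1755056 copies of repeats that were not used. Uniquely aligned pairs were counted without regard to strand, and pairs overlapping more than 1 feature were dropped, which lowers overlapping genes.

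From these counts, the 25794 genes on autosomes whose mean over libraries reached 1 read were tested with edgeR 4.0.16 in R 4.3.3, as TMM-normalized libraries in 1 model of all 11 groups, by the quasi-likelihood test with Benjamini-Hochberg adjustment. Sex chromosomes were left out, as in the study. CPM was computed from the deposited counts after TMM, and TPM over autosomal genes. Alternatives were DESeq2 1.42.0, RLE factors, no filter, a replicate block, only the compared groups in the fit, both untreated controls as the reference, and each library left out. The scripts were tested on simulated counts. Nothing says which pools shared a day or donor, so p-values measure the spread between libraries, which may be technical. Depth limits the genes with few reads.

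The 45 genes, the other pathway lists and the tests were chosen with earlier results of these data known. Values per library were given for the first 16 genes by adjusted p of those called in both untreated controls against IVF or in at least 3 of the 8 comparisons with the own control, and for *Mcm2*, *Cdc6*, *Orc1*, *Ccne1* and *Ccne2*. Those of *Cdc45*, *Rrm2*, *Mcm6*, *Prim1*, *Orc4* and *Rpa1*, and the background of genes of at least 10 CPM, were added after the values were seen. Of the other pathway genes, the first 12 by adjusted p were named. Promoter windows and their start sites are those of RefSeq.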

Additional observations from a re-analysis of the deposited data

Results flagged for a closer look

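Among the 4 IVF libraries, 1 of the 45 genes had a library apart from the others. *Gmnn* had 937, 939, 1085 and 926 CPM, and the gap between replicate 3 and the nearest library was 0.919 of the whole range. About 1 in 20 groups pass the limit for such a gap by chance, and 45 genes were looked at. Without this library the call of *Gmnn* held in both untreated controls together against IVF and was lost in CC_T against IVF (log2 fold change −0.48, adjusted p = 0.0514).

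The effect of a G9a inhibitor differed with and without TSA for 8 values by the interaction in edgeR's quasi-likelihood test over all genes. With RK-701 the interaction on the log2 scale was 1.17 for *Orc4*, 1.40 for *Gins1* and 1.11 for *Rpa3*. With A366 it was 1.65 for *Orc4*, 2.02 for *Orc5*, 1.99 for *Rfc4*, 1.37 for *Prim1* and −1.32 for *Cdt1*. *Rfc4* had 98.5 and 38.1 CPM in CC_cont, 21.8 and 46 in CC_T, 41.7 and 30.5 in CC_G with A366 and 72.1 and 70.6 in CC_TG with A366, and replicate 1 of CC_cont was its highest library. Without that library the adjusted p of *Rfc4* was 0.344, and each of the 8 calls was lost without at least 1 library.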

How the results depend on the processing

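Of the 326 calls of the 45 genes over all comparisons, 0 reversed under any alternative. Calls lost numbered 2 with DESeq2, 14 without the filter on low counts, 21 with RLE factors and 70 with only the compared groups in the fit, and 433 of 1905 values when 1 library was left out. With both untreated controls as the reference, 66 of 66 calls were kept. A lone library was assumed to vary like the other groups. The cause of these changes was not tested, except that fitting only the compared groups leaves fewer libraries to estimate the spread.

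Deviations of the replicate 1 libraries from their group means had correlations of −0.322 to 0.165 between groups, with 1 of 55 pairs of groups over 0.1. This gave no sign that same-numbered libraries are paired, but it cannot exclude that some pools shared a day or donor. With the replicate number as a block, 59 calls were lost, and the counts became 7 for SCNT-*Kdm3a*, 3 for SCNT-*Kdm4d*, 0 for CC_T and 4 for CC_G with RK-701, each against its control.

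Other counts that moved by over 1.5 times were these. With RLE factors, SCNT-*Kdm3a* had 7 and SCNT-*Kdm4d* 3. Without the filter, SCNT-*Kdm4d* had 9, CC_T 2, CC_G with A366 2, the interactions 5 (RK-701) and 8 (A366), and UNC0638 with TSA 2 against RK-701 and 1 against A366. With DESeq2, CC_T had 3, CC_G with A366 3, the interactions 9 and 12, and UNC0638 with TSA 5 and 3. With only the compared groups, SCNT-*Kdm3a* had 5, CC_T 0, CC_G with RK-701 1, CC_TG 2, 2 and 3, the interactions 0 and 0, and UNC0638 with TSA 1 and 2. With both untreated controls as the reference, SCNT-*Kdm3a* had 18, SCNT-*Kdm4d* 12, CC_G with RK-701 12 and with A366 2.

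With 1 library left out, the counts against the own control ran from 0 to 10 in SCNT-*Kdm3a*, 0 to 6 in SCNT-*Kdm4d*, 0 to 4 in CC_T, 1 to 16 and 0 to 9 in CC_G with RK-701 and A366, and 6 to 23, 3 to 16 and 2 to 20 in CC_TG with RK-701, A366 and UNC0638. Against IVF they ran from 19 to 29 in both controls together, 14 to 18 in control SCNT, 15 to 19 in CC_cont, 17 to 23 in SCNT-*Kdm3a*, 14 to 21 in SCNT-*Kdm4d*, 16 to 21 in CC_T, 18 to 22 and 12 to 19 in CC_G, and 17 to 23, 11 to 23 and 13 to 22 in CC_TG. The interactions ran from 0 to 5 and 0 to 18, A366 against RK-701 from 5 to 14, and all other comparisons of groups stayed at 0. With TPM over all chromosomes the sum of the 45 genes was 6497 in IVF, 6071 in control SCNT, 6299 in CC_cont and 7708, 7966 and 7756 in CC_TG, so that CC_TG remained above them. The means of the other treated groups did too, from 6552 in CC_G with A366 to 7303 in SCNT-*Kdm4d*, though replicate 1 of CC_cont alone had 6896. Few reads limit *Pold1* and *Fen1*.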
